A study of Mus musculus with 10 samples.

Results

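The genes described here are 7 genes of the heat shock system that act beside the large chaperone families: the small heat shock proteins Hspb1, Hspb8 and Cryab, the cochaperone Bag3, the collagen chaperone Serpinh1, and the heat shock factors Hsf1 and Hsf2. They were taken by their symbols from the rows of both deposited tables, and all 7 were found among 38087 genes. The cells were wild-type NIH3T3, an immortalised mouse fibroblast line, seeded at 37 °C for 4 h. In the warming course they were held for 16 h at 33 °C and then moved to 38 °C, and in the cooling course they were held for 16 h at 38 °C and then moved to 33 °C. Samples taken 0, 1, 3, 6 and 9 h after each move gave 10 samples of ribosome-depleted total RNA, with 1 sample per time and course. Reads lying in exons and reads lying in introns were counted separately for each gene.

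Small heat shock proteins bind unfolding proteins and keep them from aggregating until ATP-driven chaperones refold them. HSPB8 works with BAG3, which couples it to the HSP70 chaperones and to the autophagic removal of damaged proteins. SERPINH1, also called HSP47, resides in the endoplasmic reticulum and binds procollagen as it folds, and fibroblasts make much of it. HSF1 is the main transcription factor of the mammalian heat shock response and binds inverted repeats of the unit GAA in the promoters of chaperone genes, while HSF2 is a related factor that can form mixed trimers with it. Intron reads come mostly from precursor RNA that has not been spliced, and exon reads mostly from mature mRNA.

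Every sample had 2 complete columns of counts, from numbered series 2 and 13 for warming and 5 and 11 for cooling, which were added and counted as 1 sample. The 1 and 3 h cooling samples also had a column of series 10, which was left out except in an alternative setting. The columns held 22403625 to 48004854 exon reads and 15313374 to 25233405 intron reads. The component with the most variance among the columns (49.0%) separated series 2 and 5 from series 11 and 13, and the labels do not say what the series are, so results are also given within each pair of series. Each series belongs to 1 course, so a difference between series cannot be told apart from one between courses within a pair. The 6 fibroblast markers examined were all tested, with a summed exon level of 7632 to 8691 RPKM (reads per kilobase of exon, scaled to library size) over the warming samples and 5920 to 6882 RPKM over the cooling samples. The summed muscle markers reached 2.11 to 6.62 RPKM over the warming samples and 1.35 to 3.17 RPKM over the cooling samples, with Acta1 falling in both courses (-2.13 and -2.07 on the log2 scale) and Myod1 listed at 0. The summed immune markers reached 1.67 RPKM in warming and 1.82 RPKM in cooling, and the lens, epithelial and endothelial sums stayed at or below 1.25 RPKM. The part of these markers in the results was not tested.

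Promoter sequence shows how the genes differ in the motif that HSF1 binds. The 250 bases before the RefSeq transcription start (build GRCm38.p6) are printed 5′ to 3′ for Hspb1 and for 3 genes whose intron reads rose in the first hour of warming. Capitals mark matches to GAANNTTC or TTCNNGAA, which is the HSF motif reduced to a pair of inverted units, searched on both strands. Hspb1 lies on the plus strand, with its window at chr5:135887669-135887918. Hspb8 lies on the minus strand (chr5:116422865-116423114), Bag3 on the plus strand (chr7:128523333-128523582) and Serpinh1 on the minus strand (chr7:99353240-99353489).
Hspb1: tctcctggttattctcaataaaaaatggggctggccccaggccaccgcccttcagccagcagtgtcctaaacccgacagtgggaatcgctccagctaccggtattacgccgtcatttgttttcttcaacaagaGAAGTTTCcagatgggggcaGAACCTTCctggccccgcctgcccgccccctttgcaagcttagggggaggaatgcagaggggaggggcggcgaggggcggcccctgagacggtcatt
Hspb8: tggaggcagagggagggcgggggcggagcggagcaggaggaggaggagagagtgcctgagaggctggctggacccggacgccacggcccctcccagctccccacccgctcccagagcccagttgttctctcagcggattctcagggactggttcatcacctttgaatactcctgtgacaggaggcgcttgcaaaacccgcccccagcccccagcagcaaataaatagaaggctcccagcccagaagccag
Bag3: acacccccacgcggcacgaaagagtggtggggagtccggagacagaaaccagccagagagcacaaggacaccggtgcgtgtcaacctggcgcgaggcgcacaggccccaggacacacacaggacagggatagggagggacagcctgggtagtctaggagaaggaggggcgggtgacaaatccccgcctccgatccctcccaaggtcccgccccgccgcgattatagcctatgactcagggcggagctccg
Serpinh1: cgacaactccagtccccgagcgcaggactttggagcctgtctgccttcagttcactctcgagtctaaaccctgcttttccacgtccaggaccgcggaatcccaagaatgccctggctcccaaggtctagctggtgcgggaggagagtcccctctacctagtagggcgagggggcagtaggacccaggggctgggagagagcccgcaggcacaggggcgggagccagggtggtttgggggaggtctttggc
Only the Hspb1 window held the pair motif among these 4 windows, once 117 to 110 bases and once 97 to 90 bases before the start. Windows were matched for 5 of the 7 genes, the others being Cryab and Hsf1. The window of Hsf2 had no match to the motif either. Of 32851 mouse promoter windows of the same length, 12.8% held the pair motif and 0.466% held 3 units in a row (GAANNTTCNNGAA or TTCNNGAANNTTC), which none of the 5 windows did. No match says only that these letters are not in the window.

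The question put to the exon reads was whether mature mRNA of these genes followed the temperature. Serpinh1 and Hsf1 rose during warming and fell during cooling, and Cryab fell during cooling. Hspb8, Bag3 and Hsf2 did not pass the test in either course, and Hspb1 had too few reads to be tested. Changes are given as the fitted log2 change from 0 to 9 h along log2(h + 1), with a standard error (SE), from edgeR's quasi-likelihood test, adjusted after Benjamini and Hochberg over all tested genes and called below 0.05. Of the 6 tested members 2 were called higher during warming, against 15.6% of the 10172 genes tested. During cooling 3 of 6 were called lower, against 16.6% of all genes. In the difference between the courses (warming minus cooling) 3 of 6 were called higher, against 22.8% of all genes. The median of the 6 fitted differences was 0.84 on the log2 scale, and that of all genes was -0.011. The members differ widely in level, and in bulk RNA fewer expressing cells and less RNA per cell cannot be told apart.

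Cryab, the small heat shock protein also known as alpha B-crystallin, is on chromosome 9 (chr9:50751325-50756636, plus strand, GRCm38). Its exon level was 216, 218, 236, 230.4 and 218 RPKM at 0, 1, 3, 6 and 9 h of warming. It was 237, 186, 166, 169 and 147 RPKM at the same times of cooling. With both columns together, the warmed cells stayed in a narrow band, and the cooled cells lay lower after 0 h than at 0 h. From 1 h on all cooling samples lay below all warming samples. In series 2 the level fell from 222 RPKM at 0 h to 182 RPKM at 9 h of warming. In series 13 it rose from 209 to 254 RPKM over the same times. In series 11 the 1 h cooling sample (202 RPKM) lay above the 0 h sample (192 RPKM). The fitted change was 0.08 ± 0.10 in warming (edgeR adjusted p = 0.562) and -0.62 ± 0.09 in cooling (edgeR adjusted p = 0.00225). The difference between the courses was 0.70 ± 0.13 (edgeR adjusted p = 0.00226). Within series 2 and 5 the difference was 0.63 (edgeR adjusted p = 0.0606), and within series 11 and 13 the fall in cooling was -0.32 (edgeR adjusted p = 0.0933). The fall in cooling was also not called without the 0 h cooling sample (-0.39, edgeR adjusted p = 0.0748). The gene overlaps Hspb2, on the opposite strand, over 1030 bases, but Hspb2 had only 703 exon reads in all samples together against 217012 for Cryab.

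Hspb8, the partner of BAG3, is on chromosome 5 (chr5:116408491-116422864, minus strand). Its exon level was 97.2, 121, 149, 132 and 124 RPKM at 0, 1, 3, 6 and 9 h of warming. During cooling it was 124, 117, 125, 124 and 114 RPKM. The cells held at 33 °C had the lowest value of the 10 samples, the 3 h warmed cells the highest, and the other samples of both courses overlapped. The fitted change was 0.39 ± 0.15 in warming (edgeR adjusted p = 0.0752), -0.06 ± 0.15 in cooling (edgeR adjusted p = 0.779) and 0.45 ± 0.21 for their difference (edgeR adjusted p = 0.106). Series 2 and 5 alone gave a difference of 0.74 (edgeR adjusted p = 0.00908), and series 11 and 13 alone gave 0.11 (edgeR adjusted p = 0.804). The difference was 0.09 without the 0 h warming sample, and it was called without the 3 h (0.40) or the 9 h (0.67) warming sample, with edgeR adjusted p of 0.0438 and 0.0236. DESeq2 called the rise in warming (0.38, adjusted p = 0.0381).

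Hspb1, which encodes HSP25, is on chromosome 5 (chr5:135887919-135889563, plus strand). It had 9 exon reads over the 5 warming samples and 2 over the 5 cooling samples, and it was listed at 0 in 15 of 20 columns. The highest sample value was 0.0518 RPKM, at 6 h of warming, from 3 reads in 1 of its columns. No direction can be read from such counts. The autophagy gene Map1lc3b was also listed at 0 in all 10 samples, so a value at or near 0 in these tables does not show that a gene was silent. RefSeq annotates a pseudogene of Hspb1, Hsp25-ps1, and the labels and notes do not say how the authors counted reads shared between copies.

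Bag3, which links small heat shock proteins to HSP70 and to autophagy, is on chromosome 7 (chr7:128523616-128546981, plus strand). Its exon level was 21.7, 37.8, 47.9, 32.2 and 30.2 RPKM at 0, 1, 3, 6 and 9 h of warming. During cooling it was 25.0, 24.6, 21.3, 17.9 and 17.7 RPKM. The 4 later warming samples lay above all cooling samples, with a peak at 3 h. The last 2 cooling samples were the lowest of the 10. Within series 2 and 5 the 6 and 9 h warming samples (24.1 and 24.5 RPKM) lay below the 0 h cooling sample (25.8 RPKM). There the 0 h warming sample (14.4 RPKM) also lay below the 6 h cooling sample (16.4 RPKM). The trend is straight in log2(h + 1) and does not follow a peak. The fitted change was 0.36 ± 0.35 in warming (edgeR adjusted p = 0.455) and -0.61 ± 0.32 in cooling (edgeR adjusted p = 0.168). The difference of 0.97 ± 0.47 was not called (edgeR adjusted p = 0.117), and it was 0.01 without the 0 h warming sample. It was called with the time point as a block (1.00, edgeR adjusted p = 0.0492), without the 3 h warming sample (0.89, edgeR adjusted p = 0.0490) and without the 9 h warming sample (1.43, edgeR adjusted p = 0.0396). With 0 h set against 3, 6 and 9 h together the difference was 1.19 and was called (edgeR adjusted p = 0.0444). The 0 h columns of warming differed more than those of the other members, with 14.4 RPKM in series 2 and 28.9 RPKM in series 13. Within series 2 and 5 the difference was 1.48 (edgeR adjusted p = 0.0133), and within series 11 and 13 it was 0.50 (edgeR adjusted p = 0.470).

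Serpinh1, the procollagen chaperone, is on chromosome 7 (chr7:99345376-99353239, minus strand) and had the highest level of the 7 genes. Its exon level was 418, 483, 692, 865 and 847 RPKM at 0, 1, 3, 6 and 9 h of warming. During cooling it was 805, 678, 609.6, 533 and 408 RPKM. The courses crossed. With both columns together, the 6 and 9 h warmed cells and the cells held at 38 °C were the highest. The 9 h cooled cells and the cells held at 33 °C were the lowest. Within series 11 and 13 the cells held at 38 °C (691 RPKM) lay below the 3 h warmed (860 RPKM) and 1 h cooled cells (716 RPKM). Within series 2 and 5 the 1 h warmed cells (432 RPKM) were the lowest. The gene rose by 1.18 ± 0.12 in warming (edgeR adjusted p = 0.000335) and fell by 0.87 ± 0.12 in cooling (edgeR adjusted p = 0.00172). The difference of 2.05 ± 0.16 (edgeR adjusted p = 7.05e-05) was called in all 22 alternative settings examined and ranged from 1.61 to 2.35 in them. With 0 h set against 3, 6 and 9 h together the fall in cooling was -0.64 and not called (edgeR adjusted p = 0.10).

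Hsf1, which encodes the main heat shock factor, is on chromosome 15 (chr15:76477422-76501913, plus strand). Its exon level was 8.07, 8.55, 11.2, 13.2 and 12.3 RPKM at 0, 1, 3, 6 and 9 h of warming. During cooling it was 11.3, 11.4, 9.67, 8.30 and 7.11 RPKM. With both columns together, the order of the samples was much like that of Serpinh1. The last 2 warming samples were the highest and the 9 h cooled and 33 °C-held cells the lowest. Within series 11 and 13 the 1 h cooling sample (11.8 RPKM) lay above the 6 and 9 h warming samples (11.2 and 11.3 RPKM). Within series 2 and 5 the 6 h cooling sample (8.33 RPKM) lay below the 0 h warming sample (8.55 RPKM). Hsf1 rose by 0.74 ± 0.13 in warming (edgeR adjusted p = 0.00239) and fell by 0.68 ± 0.13 in cooling (edgeR adjusted p = 0.00458). The difference of 1.42 ± 0.18 (edgeR adjusted p = 0.000270) was called in all 22 alternative settings, with values from 1.03 to 1.67. With 0 h set against 3, 6 and 9 h together neither course alone was called, at 0.59 in warming (edgeR adjusted p = 0.0744) and -0.44 in cooling (edgeR adjusted p = 0.138). The gene ends 101 bases from Dgat1 and lies 144 bases from Bop1, and neither labels nor notes state whether counting used the strand.

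Hsf2, the partner factor of HSF1, is on chromosome 10 (chr10:57486385-57513135, plus strand) and had the lowest level of the 6 tested genes. Its exon level was 2.33, 2.51, 2.40, 2.61 and 2.78 RPKM at 0, 1, 3, 6 and 9 h of warming. During cooling it was 2.80, 2.87, 2.66, 2.90 and 2.65 RPKM. With both columns together, the warming samples up to 6 h lay below all cooling samples and the 9 h warmed cells among them. The whole span of the 10 samples was 2.33 to 2.90 RPKM. Within series 11 and 13 this order did not hold, and the 3 h cooling sample (2.16 RPKM) was the lowest. There the 9 h cooling sample (2.42 RPKM) also lay below the 1 h warming sample (2.44 RPKM). The fitted change was 0.22 ± 0.09 in warming (edgeR adjusted p = 0.0954), -0.06 ± 0.09 in cooling (edgeR adjusted p = 0.674) and 0.28 ± 0.13 for their difference (edgeR adjusted p = 0.111).

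**Figure D1:**
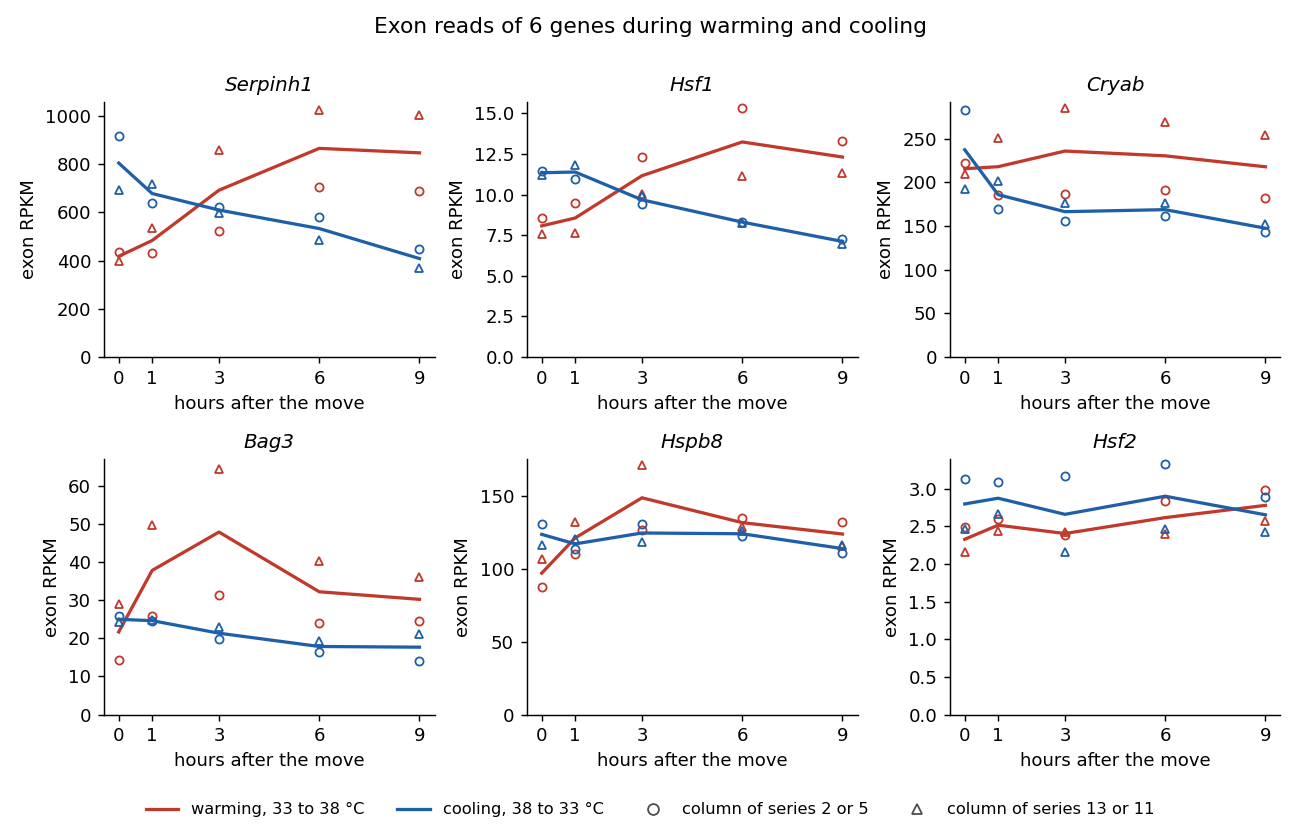
Exon level in RPKM (vertical axes, from 0) against hours after the move, for warming (red) and cooling (blue). Lines join the sample values, and circles and triangles are the 2 columns of each sample. Serpinh1 and Hsf1 cross between the courses, Bag3 peaks at 3 h of warming with 47.9 RPKM, and Hsf2 stays between 2.33 and 2.90 RPKM.

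**Figure D2:**
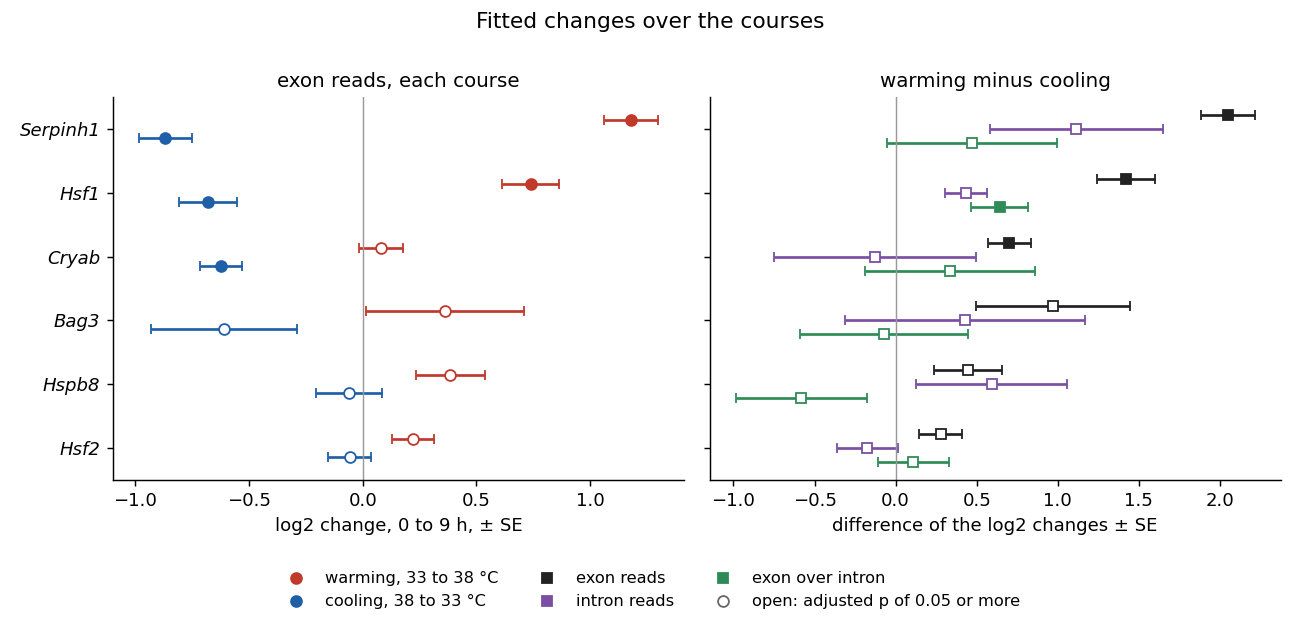
Left, fitted log2 change of exon reads from 0 to 9 h with its SE in warming (red) and cooling (blue). Right, the difference of the courses (warming minus cooling) for exon reads, intron reads and their ratio. Filled symbols have an adjusted p below 0.05: for exon differences these are Serpinh1 (2.05), Hsf1 (1.42) and Cryab (0.70), and for the ratio Hsf1 (0.64).

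Intron reads answered a different question, how precursor RNA moved, and here the first hour stood out. At 1 h of warming the intron level of Bag3, Serpinh1, Cryab and Hspb8 was more than 2-fold that at 0 h, while that of Hsf1 and Hsf2 was not. Intron RPKM is per kilobase of intron and scaled to the intron reads of each library, so its scale differs from that of exon RPKM. For Bag3 it was 3.21, 10.2, 5.17, 4.76 and 4.72 RPKM at 0, 1, 3, 6 and 9 h of warming. During cooling it was 5.42, 3.73, 3.53, 3.36 and 3.31 RPKM. The 1 h warmed cells stood far above the other 9 samples. With both columns together, the cells held at 38 °C were the second highest. Within series 11 and 13 the cells held at 38 °C (4.85 RPKM) lay below the 3, 6 and 9 h warmed cells (6.63, 5.49 and 5.25 RPKM).

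For Serpinh1 the intron level was 23.8, 56.9, 43.9, 40.7 and 41.2 RPKM in warming. The cooled cells had 36.7, 22.7, 23.3, 22.2 and 19.7 RPKM at these times. After the peak at 1 h the warmed cells stayed above all cooling samples, and the cooled cells had reached their lower level by 1 h. Within series 2 and 5 the 3 to 9 h warming samples (39.5 to 41.4 RPKM) lay below the 0 h cooling sample (42.1 RPKM). For Cryab the intron level was 6.41, 14.7, 8.87, 7.63 and 7.54 RPKM in warming. Cooling gave 6.25, 4.18, 5.49, 5.69 and 4.68 RPKM. With both columns together, all warming samples of Cryab lay above all its cooling samples, most clearly at 1 h. Within series 2 and 5 its 0 h cooling sample (7.44 RPKM) lay above its 0 h warming sample (7.13 RPKM). For Hspb8 the intron level was 5.41, 11.7, 7.70, 8.06 and 8.88 RPKM in warming. In cooling it was 8.37, 6.04, 6.39, 6.42 and 6.15 RPKM. Again the 1 h warmed cells had the highest value of the 10 samples and the cells held at 33 °C the lowest.

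The heat shock factors moved less at 1 h. For Hsf1 the intron level was 6.99, 7.22, 7.37, 7.66 and 7.48 RPKM in warming. Its cooling values were 7.51, 7.63, 7.20, 6.58 and 5.95 RPKM. These values show no peak at 1 h, and the samples with less than the 33 °C-held cells are the 6 and 9 h cooled cells. For Hsf2 the intron level was 4.24, 4.95, 4.38, 4.27 and 4.23 RPKM in warming. Cooling gave 4.36, 3.66, 4.04, 4.31 and 4.40 RPKM. The 1 h samples of Hsf2 were the highest of the 10 in warming and the lowest in cooling, with all others close together.

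**Figure D3:**
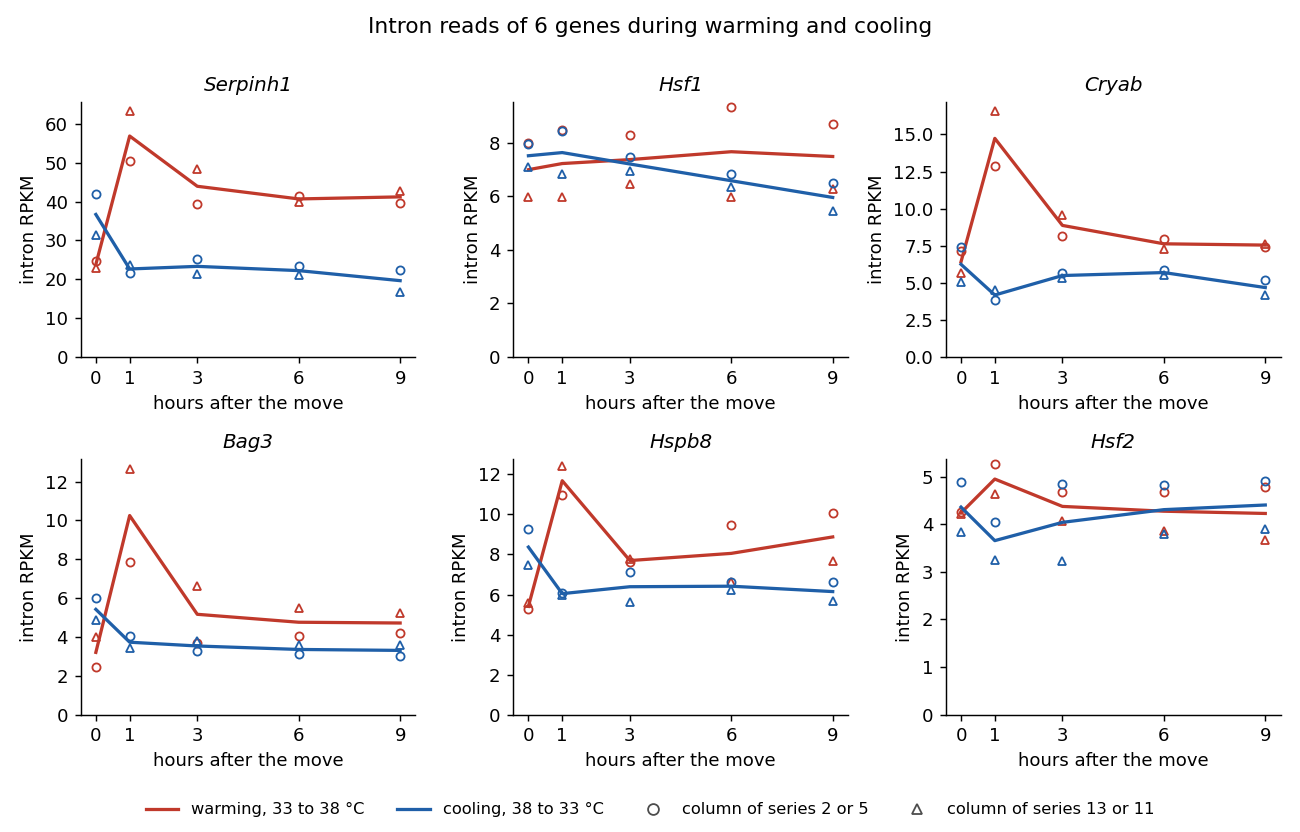
Intron level in RPKM (vertical axes, from 0) against hours after the move, drawn as for exon reads. The 1 h warming samples stand out for Serpinh1 (56.9 RPKM), Cryab (14.7 RPKM), Bag3 (10.2 RPKM) and Hspb8 (11.7 RPKM) and not for Hsf1 (7.22 RPKM).

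The ratio of 1 h over 0 h was taken with 1 sample on each side and carries no test. In warming it was 3.19 for Bag3, 2.39 for Serpinh1, 2.30 for Cryab and 2.16 for Hspb8, against 1.17 for Hsf2 and 1.03 for Hsf1. Thus 4 of 6 members were at least 2-fold higher, against 1.30% of the 9377 genes with enough intron reads. The lowest of these 4 ratios within a pair of series was 1.81, for Cryab in series 2 and 5. In cooling the same genes had ratios of 0.69 for Bag3, 0.62 for Serpinh1, 0.67 for Cryab and 0.72 for Hspb8, against 0.84 for Hsf2 and 1.02 for Hsf1. None of the 6 fell by 2-fold or more in the first hour of cooling, and 0.437% of all genes did.

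The departure of the 1 h sample from the trend through the other times was tested in the same edgeR model, a test chosen after the data had been seen. For intron reads in warming it was 1.39 ± 0.15 for Bag3 and 0.88 ± 0.09 for Hspb8, both with an edgeR adjusted p of 0.00640. It was 1.07 ± 0.16 for Cryab (edgeR adjusted p = 0.0207) and 0.91 ± 0.16 for Serpinh1 (edgeR adjusted p = 0.0340). For Hsf2 it was 0.20 ± 0.09 (edgeR adjusted p = 0.319) and for Hsf1 -0.0011 ± 0.09 (edgeR adjusted p = 0.997). Hence 4 of 6 members were called higher, against 1.37% of all genes. In cooling no member and no gene at all was called by edgeR for intron reads, although 1041 of 9377 genes had an unadjusted p under 0.05. The cooling departures ran from -0.48 for Cryab to 0.07 for Hsf1. The difference between the courses was called for Bag3 (1.66), Cryab (1.55), Serpinh1 (1.30) and Hspb8 (1.18), again 4 of 6 against 2.67% of all genes. None of these 4 differences was called without the 0 h sample of either course (0.69 to 1.63), without the 6 h cooling sample (1.17 to 1.66) or on linear hours, and only that of Hspb8 was called without the 6 h warming sample.

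These calls rest on few samples. Within series 2 and 5 the intron departure was called for Bag3 (1.41, edgeR adjusted p = 0.0171) and not for Hspb8 (0.78, edgeR adjusted p = 0.0677), Cryab (0.78, edgeR adjusted p = 0.119) or Serpinh1 (0.73, edgeR adjusted p = 0.121), while all 4 were called within series 11 and 13. Without the 0 h warming sample none of the 4 was called, at 0.87 for Bag3, 0.77 for Hspb8, 0.57 for Cryab and 0.30 for Serpinh1. Without the 6 h sample of either course Bag3 and Hspb8 kept their call, and Cryab and Serpinh1 lost it with adjusted p between 0.0644 and 0.0981.

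**Figure D4:**
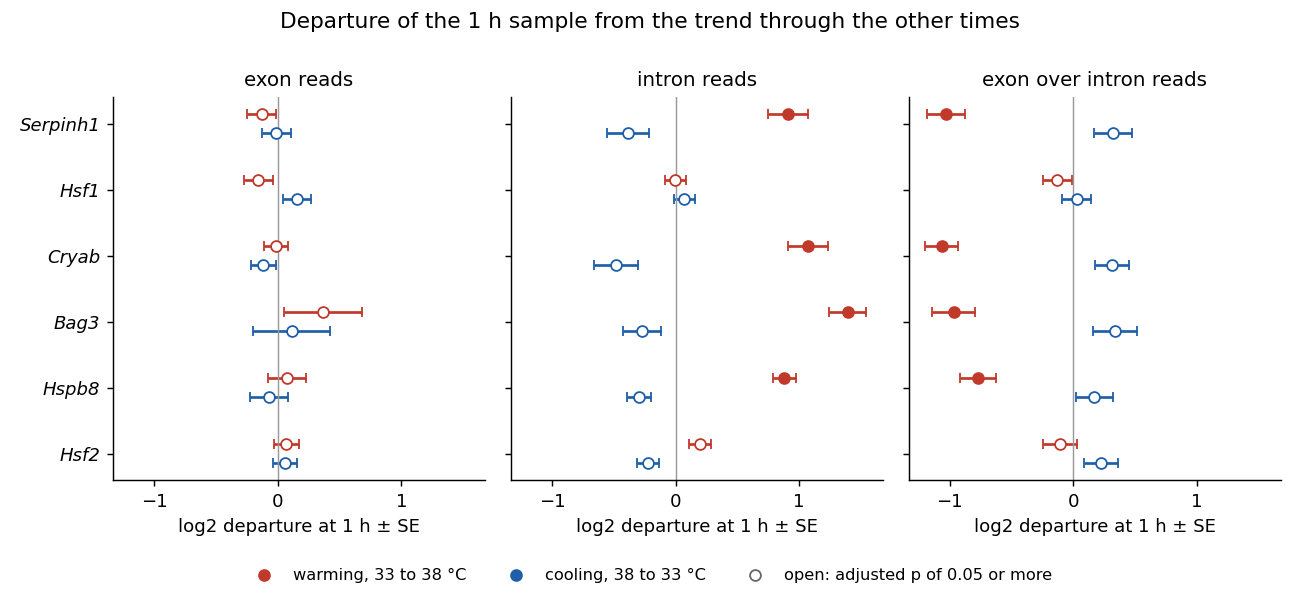
Departure at 1 h (log2, with SE) from the trend through 0, 3, 6 and 9 h, for exon reads, intron reads and their ratio, in warming (red) and cooling (blue). Filled points have an adjusted p below 0.05. In warming, intron reads of Bag3, Cryab, Serpinh1 and Hspb8 depart upwards by 0.88 to 1.39 and their exon-to-intron ratio downwards, while no exon departure is called.

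Exon reads gave no call at 1 h. In warming the exon departure at 1 h was 0.37 ± 0.31 for Bag3, 0.08 ± 0.15 for Hspb8, -0.01 ± 0.10 for Cryab and -0.13 ± 0.12 for Serpinh1. No gene was called by edgeR (0% of 10172), while 307 had an unadjusted p under 0.05. The exon level at 1 h over 0 h of warming was 1.74 for Bag3, 1.25 for Hspb8, 1.16 for Serpinh1 and 1.01 for Cryab, each below its intron ratio.

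Exon reads over intron reads, on the library sizes of the exon reads, were lowest at 1 h of warming for the 4 genes with an intron peak. For Cryab the ratio was 66.7, 28.3, 48.4, 54.0 and 50.6 at 0, 1, 3, 6 and 9 h of warming. The cooling values were 62.1, 71.4, 50.4, 54.3 and 54.4. For Serpinh1 it was 34.6, 16.3, 28.5, 37.9 and 36.0 in warming. In cooling it was 35.8, 47.99, 43.6, 43.9 and 36.0. Both genes had their lowest ratio of the 10 samples at 1 h of warming and their highest at 1 h of cooling.

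For Bag3 the ratio was 13.1, 6.98, 16.4, 11.8 and 11.1 in warming. In cooling it was 7.51, 10.5, 9.96, 9.74 and 9.05. For Hspb8 it was 35.3, 20.0, 35.6, 29.9 and 24.8 in warming. In cooling it was 24.1, 31.1, 32.7, 35.5 and 31.9. Here too the 1 h warmed cells were the lowest, followed by the cells held at 38 °C.

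The ratio departure at 1 h of warming was called for all 4 of these genes. It was -1.06 ± 0.13 for Cryab (edgeR adjusted p = 0.000870), -1.03 ± 0.15 for Serpinh1 (edgeR adjusted p = 0.00240), -0.97 ± 0.18 for Bag3 (edgeR adjusted p = 0.00689) and -0.77 ± 0.15 for Hspb8 (edgeR adjusted p = 0.00821). For Hsf1 it was -0.13 ± 0.12 and for Hsf2 -0.11 ± 0.14, neither called. Of all genes 3.00% were called lower. Without the 0 h warming sample the ratio departure was called for Bag3 (-1.63) and Hspb8 (-1.24) but not for Cryab (-0.75) or Serpinh1 (-0.60).

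Over the whole courses Hsf1 was the member whose ratio differed between warming and cooling. For Hsf1 the ratio was 2.29, 2.34, 2.84, 3.17 and 2.93 in warming. Cooling gave 2.46, 2.38, 2.23, 2.31 and 2.06. With both columns together, the 3 later warming samples were the highest of the 10 and the 9 h cooled cells the lowest. Within series 11 and 13 the 1 h cooling sample (2.87) lay above the 3 h warming sample (2.49). Within series 2 and 5 the 1 h cooling sample (2.01) lay below the 9 h cooling sample (2.13). The fitted difference between the courses was 0.64 ± 0.17 (edgeR adjusted p = 0.0247), so 1 of 6 members was called higher, against 2.78% of all genes. The median gene moved by -0.29 in this measure, and relative to it Hsf1 moved by 0.93. Series 2 and 5 alone gave 0.61 (edgeR adjusted p = 0.0941) and series 11 and 13 alone 0.73 (edgeR adjusted p = 0.108). The difference was also not called without the 0 h sample of either course, the 6 h warming sample or the 9 h cooling sample (0.57 to 0.71). For Hsf2 the ratio lay between 0.992 and 1.17 in warming and between 1.04 and 1.25 in cooling, and its fitted difference was 0.11 ± 0.22 (edgeR adjusted p = 0.753).

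**Figure D5:**
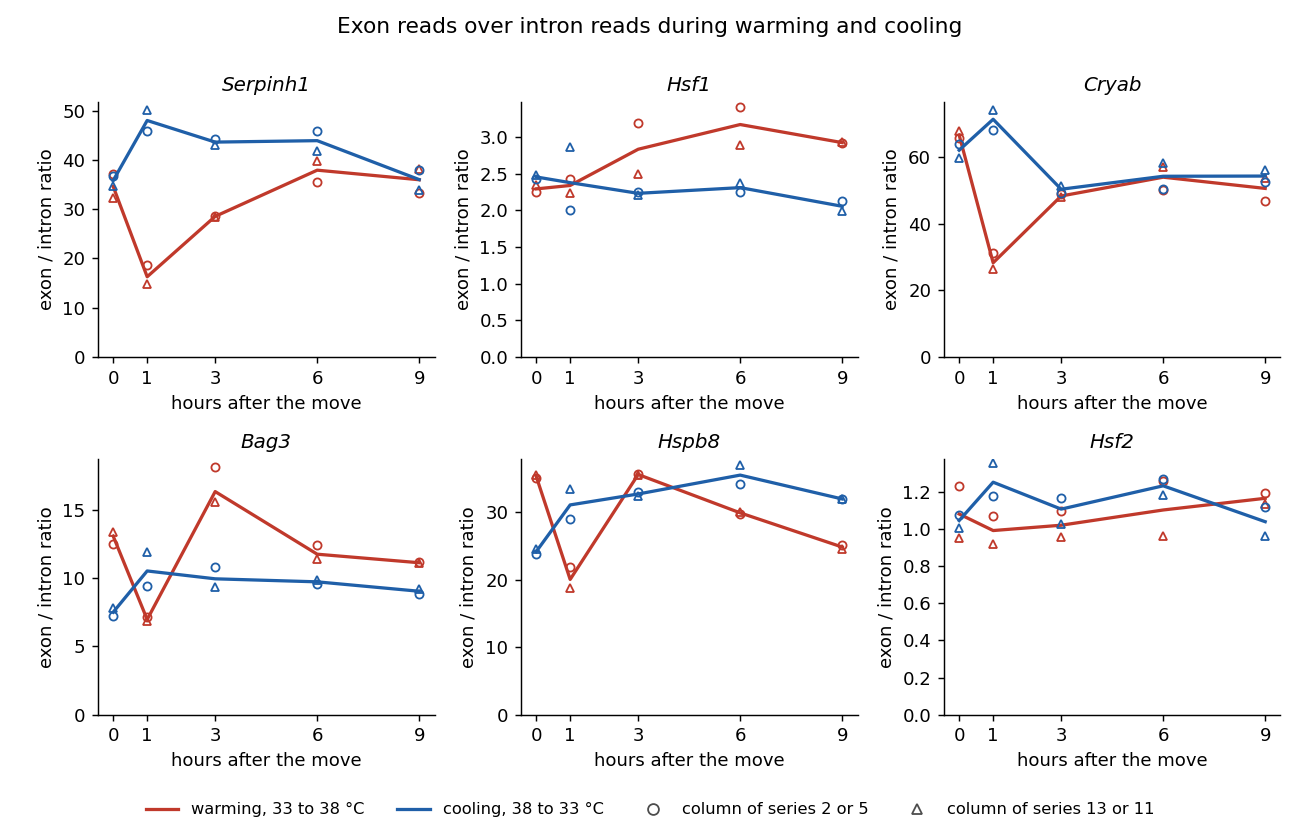
Exon reads over intron reads, per length and on one library size (vertical axes, from 0), against hours after the move, drawn as for exon reads. The 1 h warming sample is the lowest for Serpinh1 (16.3), Cryab (28.3), Bag3 (6.98) and Hspb8 (20.0), whereas Hsf1 lies between 2.84 and 3.17 from 3 h of warming on.

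Intron reads as a whole showed no called difference between the courses for these genes. No member was called by edgeR, against 7.59% of all genes in either direction, and 2470 of 9377 genes had an unadjusted p under 0.05. The fitted intron difference was 1.113 ± 0.53 for Serpinh1 (edgeR adjusted p = 0.213), from 0.053 without the 0 h warming sample to 1.59 without the 1 h warming sample, and 0.43 ± 0.13 for Hsf1 (edgeR adjusted p = 0.0710). It was 0.59 ± 0.47 for Hspb8, 0.43 ± 0.74 for Bag3, -0.13 ± 0.62 for Cryab and -0.17 ± 0.19 for Hsf2. With 0 h set against 3, 6 and 9 h together Serpinh1 (1.60), Bag3 (1.29) and Hspb8 (0.99) were called, with edgeR adjusted p of 0.000763, 0.00105 and 0.00320. Hsf1 was called on the library sizes of the exon reads (0.77, edgeR adjusted p = 0.00987), with DESeq2 and without the offset for series.

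Cells that had been at each temperature for longest were set side by side, with 1 sample each and no test. The 16 h cells at 38 °C over those at 33 °C had an exon ratio of 1.93 for Serpinh1, 1.40 for Hsf1, 1.27 for Hspb8, 1.19 for Hsf2, 1.15 for Bag3 and 1.101 for Cryab. None reached 2-fold, which 2.42% of all genes did. For Bag3 the ratio was 1.78 in series 2 and 5 and 0.84 in series 11 and 13, and for Cryab it was 1.27 and 0.92 in the same pairs, so their direction depends on the series. At 9 h the warmed cells over the cooled cells had an exon ratio of 2.07 for Serpinh1, 1.72 for Hsf1, 1.70 for Bag3, 1.48 for Cryab, 1.09 for Hspb8 and 1.05 for Hsf2. Serpinh1 was past 2-fold, as were 1.79% of all genes, with 1.53 in series 2 and 5 and 2.74 in series 11 and 13. Its intron ratio at 9 h was 2.10, and 0.970% of all genes were at least 2-fold higher.

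Genes around these members in the heat shock pathway were read from lists chosen with earlier results of these data known, and differences are again warming minus cooling in exon reads. Of 20 tested HSF1 target chaperones 15 were called higher and 0 lower, against 22.8% and 23.9% of all genes. Their median difference was 1.34 on the log2 scale, against -0.011 over all genes. The 4 with the largest differences were Chordc1 (3.09 ± 0.53), Hsph1 (2.84 ± 0.87), Ahsa2 (2.36 ± 0.52) and Hsp90aa1 (2.19 ± 0.33), of which Chordc1 and Ahsa2 encode cochaperones of HSP90, Hsph1 an HSP110 chaperone and Hsp90aa1 the heat-inducible HSP90. At 1 h of warming 7 of 19 had a called rise in intron reads, against 1.37% of all genes. Among the 7 were Dnajb1 (1.72) and Dnaja1 (1.65), J-domain cochaperones of HSP70. Of 3 other small heat shock proteins tested 2 were called lower, against 23.9% of all genes: Hspb6 (-0.70 ± 0.26, edgeR adjusted p = 0.0489) and Hspb2 (-1.01 ± 0.34, edgeR adjusted p = 0.0351). Hspb11 (0.17 ± 0.19) was not called. Hspb2 shares bases with the far more abundant Cryab, so its value is uncertain. Cryaa, Hspb3, Hspb7, Hspb9 and Odf1 stayed under 1 RPKM, as did the other HSF genes Hsf3, Hsf4, Hsf5 and Hsfy2.

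Among 6 tested cofactors and regulators of HSF1, 1 was called higher and 2 lower, against 22.8% and 23.9% of all genes. The acetyltransferase gene Ep300 was called higher (0.55 ± 0.19). The deacetylase gene Hdac6 (-1.37 ± 0.21) and the ATPase gene Vcp (-0.56 ± 0.09) were called lower. Hsbp1, which binds HSF1 trimers, had a difference of 0.16 ± 0.10 that was not called, as did Sirt1 (0.18 ± 0.18) and Crebbp (0.37 ± 0.14), while Hsbp1l1 and Hsf2bp stayed under 1 RPKM. Of the other BAG genes 3 of 5 were called lower, against the same 23.9%, namely Bag4 (-0.90 ± 0.13), Bag5 (-0.61 ± 0.14) and Bag1 (-0.35 ± 0.09), and Bag2 (0.28 ± 0.23) and Bag6 (-0.14 ± 0.09) were not called. Bag2, which restrains the ubiquitin ligase CHIP, nevertheless had a called intron rise at 1 h of warming (0.83 ± 0.11, edgeR adjusted p = 0.0139). Of 7 tested partners of BAG3, 1 was called higher and 3 lower, against 22.8% and 23.9% of all genes. The constitutive HSP70 gene Hspa8 was called higher (2.12 ± 0.46). The autophagy receptor gene Sqstm1 (-0.56 ± 0.15), the J-domain gene Dnajb6 (-0.56 ± 0.16) and the filamin gene Flnc (-0.32 ± 0.12), a client of BAG3, were called lower. Stub1 (-0.08 ± 0.09) and Flna (-0.32 ± 0.13) were not called, and Synpo2 stayed under 1 RPKM.

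No procollagen gene, the clients of SERPINH1, was called higher in either course. Of 9 procollagen genes 8 were called lower during warming, from -0.39 for Col1a1 to -0.70 for Col5a1, against 17.8% of all genes, while Col1a2 (-0.17) was not called. During cooling 4 of the 9 were called lower too, namely Col5a1 (-0.41), Col1a1 (-0.30), Col5a2 (-0.25) and Col4a1 (-0.24), against the 16.6% of all genes. In the difference between the courses 5 of 9 were called lower, against 23.9% of all genes, the largest being Col6a1 (-0.73 ± 0.14), Col3a1 (-0.52 ± 0.10), Col4a2 (-0.51 ± 0.08) and Col4a1 (-0.43 ± 0.09), and the fifth being Col5a1 (-0.29 ± 0.09). Col6a2 (-0.28 ± 0.10), Col1a2 (-0.22 ± 0.10), Col5a2 (-0.21 ± 0.10) and Col1a1 (-0.09 ± 0.10) were not called. Among 9 other tested genes of procollagen folding and modification 4 were called higher and 2 lower in this difference. The shares of all genes were 22.8% and 23.9%. P4ha1 (1.49 ± 0.16) and P4ha2 (1.38 ± 0.16), subunits of prolyl 4-hydroxylase, and the lysyl hydroxylase gene Plod2 (1.22 ± 0.14) were higher, and the peptidyl-prolyl isomerase gene Fkbp10 (-0.98 ± 0.10) was lower.

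Genes with the most similar exon profile were found by Pearson's r of log2 exon RPKM (0.1 added) over the 10 samples. This is a description without a test, in which samples share the courses and series. For Serpinh1 they were Calr (0.992), Pet112l (0.991) and Plod2 (0.986). For Hsf1 they were Zfr (0.988), Exoc3 (0.981) and C2cd3 (0.979). For Bag3 they were Polr2h (0.981), Hmox1 (0.967) and Dnaja4 (0.967). For Cryab they were Nsd1 (0.968), Cenpo (0.966) and Xrcc2 (0.966). The highest r for Hspb8 was lower, with Gtf2h1 at 0.909, Mknk2 at 0.887 and the HSP110 family gene Hspa4l at 0.886. For Hsf2 they were Gm5909 (0.956), Agtpbp1 (0.944) and Anp32a (0.940).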

How the data were processed

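The authors deposited estimated counts of exon and intron reads per gene, although the table names speak of RPKM. Per the submitters' processing notes, STAR and bedtools were used on build mm10, without versions. No source used here names the annotation or the rule for shared reads. The libraries were paired-end and strand-specific, per the labels' protocols. The title of 1 warming sample is mistyped and was settled by its description. Values above 0 were whole (within 1e-06) in 22.9% of exon and 8.93% of intron entries and were rounded.

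RPKM used GENCODE M21 lengths (36308 genes, 95.3%, matched) and TMM scaling. Counts were fitted in edgeR 4.0.16 (R 4.3.3) with a slope on log2(h + 1) per course and an offset per gene that removes how the series are mixed. Exon tests took the 10172 genes whose mean exon RPKM reached 1, and intron and ratio tests the 9377 of them whose mean intron RPKM reached 0.05. The SE is the change over the root of the F statistic. Each time has 1 sample, so the spread is that around the trend and may be technical. Ratios of single samples used pseudocounts of 0.1 (exon) and 0.01 (intron) and a threshold of 2-fold. Alternatives used DESeq2 1.42.0, limma 3.58.1, other filters, scalings, time scales and series, and left out each sample. The fits were tested on simulated counts. Members and lists were chosen with earlier results of these data known. Genes named beside the members are the 3 closest profiles each, up to 4 genes per list by size of difference, and the genes of lists of at most 9 genes. The values of 1 gene of a list are not reported here.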

Additional observations from a re-analysis of the deposited data

Results flagged for a closer look

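The changes below differed between warming and cooling by a test of the difference itself (edgeR, adjusted p below 0.05). For exon reads over the whole courses these were Serpinh1 (2.05), Hsf1 (1.42) and Cryab (0.70 on the log2 scale, warming minus cooling). For the ratio of exon to intron reads it was Hsf1 (0.64).

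For the departure of the 1 h sample, intron reads differed for Bag3 (1.66), Cryab (1.55), Serpinh1 (1.30) and Hspb8 (1.18). The exon-to-intron ratio at 1 h differed for Cryab (-1.38), Serpinh1 (-1.35), Bag3 (-1.30) and Hspb8 (-0.95). Without the 0 h cooling sample the ratio difference was not called for Bag3 (-0.93), Serpinh1 (-0.95) or Hspb8 (-0.66). It was also not called for Serpinh1 without the 0 h warming sample (-0.92), for Hspb8 with limma (-0.93), or within series 2 and 5 for Bag3 (-1.12) and Hspb8 (-0.72). The 1 h test was chosen after the data had been seen.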

How the results depend on the processing

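The exon differences of Serpinh1 and Hsf1 between warming and cooling were called in all 22 alternatives, and that of Cryab in 21 of 22. The cause of each change below was not tested. Setting 0 h against 3, 6 and 9 h together gave 1 called member in warming and 1 in cooling for exons, 5 for the exon difference, 3 for introns and 2 for the ratio. For the intron difference 1 member was called with DESeq2, without the offset and on exon library sizes. For the ratio difference 0 were called within series 2 and 5, within series 11 and 13, on linear hours and with the time point as a block. For the intron rise at 1 h, 2 were called with limma, 1 within series 2 and 5 and 0 on linear hours, and for the ratio fall 2 with limma and 2 within series 2 and 5. Series 2 and 5 alone put 1 member past 2-fold at 0 h for exons and 1 for introns, and 0 at 9 h for either. Leaving out 1 sample gave 3 to 5 called members for the exon difference, 0 to 3 for introns, 0 to 2 for the ratio, 0 to 4 for the intron rise and 2 to 4 for the ratio fall.

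Signs turned only for values that were not called. With 1 sample left out Bag3 ranged from -0.59 to 0.81 (exon, warming), -0.92 to 1.26 (intron difference) and -0.44 to 0.61 (ratio difference). Cryab ranged from -1.26 to 0.44 (intron difference) and -0.063 to 1.55 (ratio difference), and Hspb8 from -0.097 to 0.042 (exon, cooling) and -0.25 to 1.02 (intron difference). Hsf1 ranged from -0.12 to 0.13 (1 h intron difference) and -0.043 to 0.0071 (1 h intron, warming). Hsf2 ranged from -0.11 to 0.024 (exon, cooling), -0.14 to 0.091 (1 h ratio, warming) and -0.062 to 0.39 (ratio difference). Within series 11 and 13 Bag3 was -0.049 (intron difference) and Hspb8 0.035 (exon, cooling). Within series 2 and 5 Cryab was -0.22 (exon, warming), Hsf1 0.036 (1 h intron, warming) and 0.12 (1 h ratio difference), and Hsf2 -0.057 (ratio difference). The step from 0 h gave 0.61 (intron) and -0.17 (ratio) for Cryab, 0.039 (intron) and -0.090 (ratio) for Hsf2 and -0.23 (ratio) for Serpinh1. Exon library sizes gave intron differences of 0.22 for Cryab and 0.17 for Hsf2, and the time block 0.033 for Cryab. Linear hours gave 0.029 for the Bag3 ratio and 0.0016 for the Hsf1 intron at 1 h, which was 0.0065 with limma and 0.012 without the offset. Pairing by replicate number could not be done, since the labels give no such numbers. The time point as a block gave 4 called members for the exon difference, Bag3 being the addition.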
